A study of Mus musculus with 8 samples.

Results

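The genes described here build and move motile cilia: 42 genes of the axoneme, of its dynein motors, of the transport that assembles it, and of the ciliated cells that carry it. They were taken by gene name from the probes of a bead array. The list itself was chosen with earlier results of these data known. Of the 42 genes, 31 had 1 or more of 45 probes among the 25697 on the array, and 25 were detected, meaning that a probe reached a detection p under 0.05 on 3 or more of 8 arrays. The 25 stand among 10200 features tested.

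The RNA came from entire lungs of mice aged 6 to 12 weeks. All were NOD/shi, an inbred strain of the non-obese diabetic line. The 5 ventilated mice had been mechanically ventilated and the 3 control mice had not. How long or at what settings, and whether controls were anaesthetised, is not stated in the labels used. The labels number the lungs within each group, 1 to 5 and 1 to 3, with no word on litters or batches, so p-values measure the spread between these samples. Mean probe intensity ranged from 87.4 to 321 on the ventilated arrays and from 54.3 to 332 on the control arrays. The dimmest array was control 2, and the brighter 4 were ventilated 2 and 5 with controls 1 and 3. Between 16 and 25 of the 25 ciliary genes were detected on a ventilated array, and 25, 15 and 24 on controls 1, 2 and 3. All levels below are background-corrected, quantile-normalized log2 intensities. They can be compared between arrays for a probe, and not between probes.

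A motile cilium holds a ring of microtubule doublets around a central pair. Dynein arms on the doublets slide them past each other, radial spokes and the central pair order the stroke, and intraflagellar transport carries the parts to the tip. In the lung, multiciliated cells of the airway lining carry these cilia and clear mucus, under the transcription factor FOXJ1 and the RFX factors, which bind a DNA motif called the X-box. Because whole lung was measured, fewer ciliated cells and less ciliary RNA per cell cannot be told apart in any value below.

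The promoters of some members hold a piece of the X-box, which played no part in choosing them. The half-site GTTGCC, on either strand, stood in the 250 bases before an annotated start of 15 of the 37 members in the RefSeq promoter table of build GRCm38.p6, or 40.5%. The table had no entry for Foxj1, Rsph1, Rsph4a, Cfap53 and Tppp3. The half-site stood before 27.5% of 138 other cilium genes and 11.8% of all 27025 genes in that resource. A full X-box, matched by its consensus with up to 3 bases between its inverted half-sites, stood before 8 of the 37 members (21.6%), 15 of 138 other cilium genes (10.9%) and 2.57% of all genes. The 2 motifs overlap where an X-box uses this half-site. The forkhead heptamer TGTTTAC, on either strand, was found before 1 of the 37 members (2.70%), 2.90% of the other cilium genes and 3.54% of all genes. A match is a description of these letters and not a bound site.

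The windows below give 1 match for each of the 10 detected members that hold one, so that they can be set beside the values further on, with the half-site (or its reverse complement GGCAAC) in capitals and the strand of the gene read 5′ to 3′. In Spag16 a second match, in the other orientation, lies within the lower-case letters, and in Tekt1 a second match begins 15 bases before the start and is cut by the window's end.
Mns1, chr9:72438440-72438479, plus strand: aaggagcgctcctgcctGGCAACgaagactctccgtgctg
Tekt1, chr11:72361895-72361934, minus strand: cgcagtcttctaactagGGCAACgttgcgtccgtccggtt
Rfx2, chr17:56831102-56831141, minus strand: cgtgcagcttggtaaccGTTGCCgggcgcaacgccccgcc
Enkur, chr2:21205377-21205416, minus strand: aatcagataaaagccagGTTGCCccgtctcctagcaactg
Ift140, chr17:25015960-25015999, plus strand: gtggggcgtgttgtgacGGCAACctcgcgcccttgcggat
Spag16, chr1:69826850-69826889, plus strand: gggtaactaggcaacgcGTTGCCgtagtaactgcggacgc
Hydin, chr8:110266947-110266976, plus strand: cactctgcggttgctgtGGCAACagatggt
Ccdc113, chr8:95534077-95534099, plus strand: cagcgttcagttgtctaGGCAAC
Cetn2, chrX:72918345-72918369, minus strand: gaggctgcgagtacgccGTTGCCtt
Pifo, chr3:106001498-106001526, minus strand: cgcggttccgttcccttGGCAACgtagta

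Mns1, the member with the largest difference, carried the half-site 72 bases before its start. Its whole upstream window of 250 bases is shown with the match in capitals.
Mns1, chr9:72438279-72438528, plus strand: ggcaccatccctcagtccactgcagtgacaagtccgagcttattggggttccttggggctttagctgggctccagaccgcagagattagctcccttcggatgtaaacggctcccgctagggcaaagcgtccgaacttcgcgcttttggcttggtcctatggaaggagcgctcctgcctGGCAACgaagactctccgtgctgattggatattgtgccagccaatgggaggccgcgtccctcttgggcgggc
The same window held no such match before Spag6l and Sec14l3, whose values also lay apart between the groups. Among detected members with a promoter entry the median log2 fold change, ventilated minus control, was −0.28 for the 10 with the half-site and −0.33 for the 11 without it. For the full X-box it was −0.06 for the 3 with a match, Dnai1, Spag16 and Hydin, and −0.34 for those without.

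In ventilated lungs 22 of the 25 detected ciliary genes had a fitted level below that of control lungs, and 0 of the 25 passed the test. The threshold was an adjusted p under 0.05 from limma over all 10200 features. At that threshold 2% of all features were called, 1.26% higher and 0.735% lower in ventilated lungs. The median log2 fold change of the 25 genes was −0.23, with a range of −1.32 to 0.28, beside a median of 0.01 over all features, 48.8% of which lay below 0. An unadjusted p under 0.05 was reached by 5 of the 25, all lower, against 7.55% of all features lower and 8.69% higher. The 5 were Mns1, Spag6l, Tppp3, Rfx2 and Sec14l3. For 3 of the 25 every ventilated value lay below every control value (6.45% of all features), and for 0 of them above (6.71% of all features).

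The 25 genes passed a filter on detection, which does not look at groups but favours brighter genes. The lowest detected log2 level was 5.79 on control 2 and 4.49 to 5.24 on the other arrays. Detection on all 8 arrays therefore required a higher level in that control than in any other lung. The 14 detected on all 8 arrays all had a fitted level below that of controls, with a median of −0.42. Of the 5485 features detected on all arrays 54.1% did so, with a median of −0.05. The 11 members detected on 3 to 7 arrays had a median of −0.07, and 8 of them lay below 0, beside 42.6% and a median of 0.08 for features detected that often. Leaving out control 3 brought the median of the 25 genes to −0.04, with 16 of them below 0. Without control 1 it was −0.41 with 18 below 0, and without control 2 it was −0.37 with 24 below 0.

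**Figure D1:**
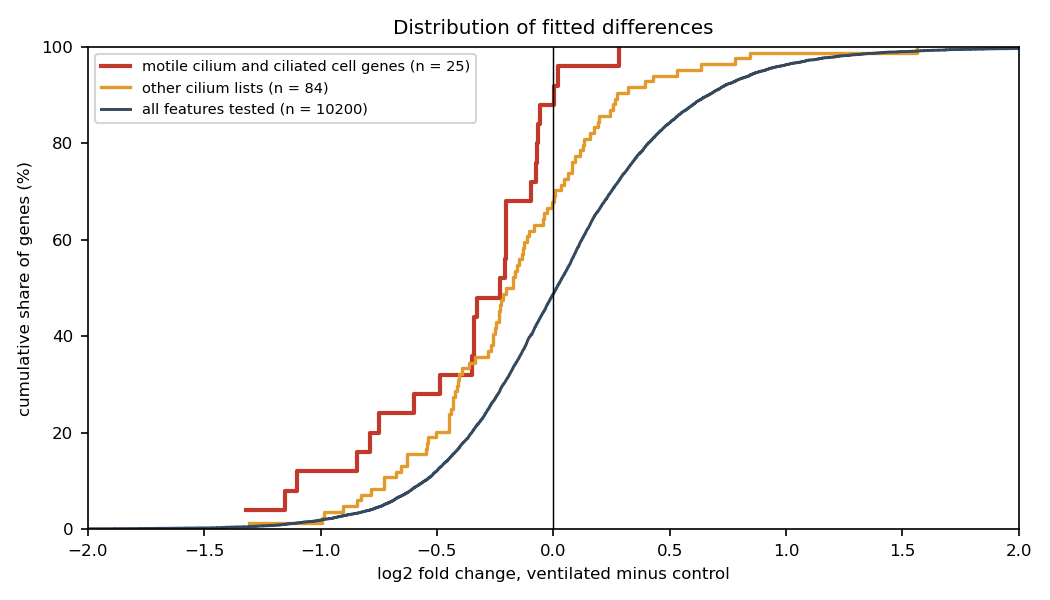
Cumulative share of genes (y axis, percent) by log2 fold change, ventilated minus control (x axis), for the 25 detected motile cilium and ciliated cell genes, the 84 detected genes of the other cilium lists and all 10200 features tested. The line of the 25 genes crosses 0 at 22 of 25, where 48.8% of all features lie below 0; the 3 sets overlap, since the first 2 are part of the last.

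Of the transcription factors, Rfx2, which binds X-boxes in ciliary promoters, was detected on every array and Foxj1, the factor needed for the motile cilium programme, on 5. Rfx2 read 7.01, 6.70, 6.63, 6.87 and 7.69 in ventilated lungs 1 to 5 and 8.21, 7.87 and 7.38 in controls 1 to 3 on the log2 scale. Ventilated 5 lay above the lowest control, so the groups overlapped, and the other 4 ventilated lungs lay below all controls. Its log2 fold change was −0.84 ± 0.30 (SE; 95% interval −1.50 to −0.19; adjusted p = 0.19). Foxj1 was dim. Its levels were 4.80, 5.18, 4.60, 5.79 and 4.98 in the ventilated lungs, against 4.94, 4.38 and 5.05 in the controls, with detection on 3 of 5 and 2 of 3 arrays. Its log2 fold change of 0.28 ± 0.30 (SE; 95% interval −0.38 to 0.94; adjusted p = 0.7) was the highest among the members, within the spread between lungs, and became −0.09 with a common median in place of quantile normalization. Rfx3 had 4 probes, each detected on 2 arrays or fewer, and gave no tested value.

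Tektins and other proteins inside the doublets included the member with the largest difference. Mns1, a filament protein of the doublet lumen needed for motile cilia, had log2 levels of 6.12, 6.31, 6.15, 7.07 and 6.49 in ventilated lungs 1 to 5, against 7.33, 7.51 and 8.40 in controls 1 to 3. All 5 ventilated values lay below the lowest control, and control 3 stood highest. The log2 fold change was −1.32 ± 0.31 (SE; 95% interval −2.01 to −0.63; adjusted p = 0.0609), a 2.50-fold lower level that missed the threshold. It passed in 6 of 14 alternative settings and was −0.99 without control 3.

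Tekt1, a tektin that runs along the inside of the doublets, gave 6.65, 6.50, 6.70, 7.29 and 6.93 in ventilated lungs and 6.89, 7.86 and 7.48 in controls, with 1 control inside the ventilated range. Its fitted difference was −0.60 ± 0.28 (SE; 95% interval −1.21 to 0.01; adjusted p = 0.321). A second probe of Tekt1, dimmer but also detected on all arrays, gave a log2 fold change of −0.22 ± 0.23. Enkur, which encodes the calcium-linked doublet protein enkurin, read 4.34, 5.30, 5.33, 5.53 and 5.89 in ventilated lungs and 6.13, 4.26 and 6.07 in controls. Ventilated 1 and control 2 were its lowest arrays and the 2 on which it was not detected. The log2 fold changes of Enkur, Cfap53 and Cfap52, the last 2 also proteins of the doublet wall, were −0.21 ± 0.46, −0.07 ± 0.25 and 0.02 ± 0.26, and none passed.

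The dynein arms gave no difference that passed. Dnali1, a light intermediate chain of the inner arms, read 6.15, 6.52, 7.09, 7.50 and 6.43 in ventilated lungs and 6.30, 7.38 and 7.55 in controls, and 2 of the 3 controls lay inside the ventilated range. Its log2 fold change was −0.34 ± 0.37 (SE; 95% interval −1.17 to 0.49; adjusted p = 0.71). Dnai1, an intermediate chain of the outer arms that the array lists under the older symbol Dnaic1, stood at −0.06 ± 0.34 (SE; 95% interval −0.80 to 0.68; adjusted p = 0.951), and its second probe at 0.11 ± 0.25. Neither probe was detected on control 2.

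Ccdc39 and Ccdc40 encode the paired ruler that spaces the arms along the doublet. Ccdc39 had a log2 fold change of −0.21 ± 0.29. Ccdc40 read 4.84, 4.54, 4.72, 4.27 and 4.70 in ventilated lungs and 4.64, 6.68 and 4.78 in controls. Control 2 alone stood apart there. The fitted value of Ccdc40 was −0.75 ± 0.42 with all arrays and −0.09 without control 2. Of the outer arm heavy chains, Dnah5 was detected on 0 arrays and Dnah11 on 1.

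Among radial spoke and central pair genes, Spag6l differed most. It encodes a repeat protein of the central pair and has a near copy in the mouse, Spag6, whose transcript the probe may also read, which was not tested. Its log2 levels were 5.40, 6.32, 6.00, 6.49 and 6.59 in ventilated lungs 1 to 5 and 7.31, 6.72 and 7.91 in controls 1 to 3. Every ventilated lung lay below every control, ventilated 1 furthest. The log2 fold change was −1.15 ± 0.34 (SE; 95% interval −1.91 to −0.40; adjusted p = 0.121), or −0.86 without control 3, and a second, dimmer probe detected on 4 arrays gave −0.47 ± 0.25.

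Rsph1 and Rsph9, both of the radial spoke head, gave small fitted differences. Rsph1 read 8.83, 8.94, 9.14, 9.23 and 8.97 in ventilated lungs and 8.82, 9.31 and 9.55 in controls, a fitted difference of −0.21 ± 0.23 (SE; 95% interval −0.71 to 0.30; adjusted p = 0.718). The groups overlapped, and the interval covers changes in either direction. Rsph9 gave −0.10 ± 0.26. The central pair genes Hydin and Spag16 were dim, with detection on 4 and 3 arrays, and stood at −0.07 ± 0.24 and 0.00 ± 0.24. Spag17, a further central pair gene, was detected on 0 arrays.

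The genes of intraflagellar transport serve primary cilia of many cell types as well as motile cilia. Ift88, a core subunit of the anterograde complex B, read 5.76, 5.99, 5.97, 6.18 and 5.84 in ventilated lungs and 6.04, 6.60 and 6.66 in controls, with control 1 within the ventilated range and the other 2 controls above it. Its log2 fold change was −0.49 ± 0.22 (SE; 95% interval −0.99 to 0.01; adjusted p = 0.318). Ift140, a subunit of the retrograde complex A, stood at −0.35 ± 0.25. For Ift172, a large complex B subunit, 3 probes were detected on all arrays and gave −0.23 ± 0.32, −0.44 ± 0.26 and −0.17 ± 0.20. All 3 values were below 0, the groups overlapped for each probe, and none of the 3 had an unadjusted p under 0.05. Ift57 had 4 probes, each detected on 1 array or none.

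Products of ciliated cells outside the axoneme core gave the remaining differences. Sec14l3, a lipid-binding protein of ciliated airway cells, read 10.03, 9.41, 9.59, 9.55 and 9.81 in ventilated lungs 1 to 5 and 10.14, 11.09 and 10.17 in controls 1 to 3. No ventilated value reached a control value, and control 2 was the highest. The log2 fold change was −0.79 ± 0.27 (SE; 95% interval −1.39 to −0.18; adjusted p = 0.186), and −0.47 without control 2. Its second probe also separated the groups, at 9.60, 9.49, 9.10, 9.20 and 9.52 in ventilated lungs, against 10.09, 10.98 and 10.19 in controls, with a log2 fold change of −1.04 ± 0.26.

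Tppp3, a tubulin-binding protein abundant in ciliated cells but also made by some connective tissue cells, read 8.76, 7.61, 7.26, 8.31 and 8.10 in ventilated lungs and 8.63, 9.95 and 8.73 in controls. Ventilated 1 lay among the controls and control 2 above all others. The log2 fold change was −1.10 ± 0.40 (SE; 95% interval −1.98 to −0.22; adjusted p = 0.203), and −0.68 without control 2. Pifo, which acts in cilium disassembly, stood at −0.20 ± 0.26, Ak8, an adenylate kinase of cilia, at −0.33 ± 0.30, and Cetn2, a centrin of centrioles, at −0.34 ± 0.29. None passed.

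Ccdc113, an axonemal and centriolar satellite protein, varied most among lungs. It read 4.22, 5.98, 6.09, 7.01 and 6.54 in ventilated lungs and 6.66, 4.42 and 7.05 in controls, and was not detected on ventilated 1 and control 2, the arrays on which Enkur was missing. Its log2 fold change was −0.08 ± 0.68 (SE; 95% interval −1.58 to 1.43; adjusted p = 0.968), so that the interval covers changes in either direction. Spa17, a sperm and cilium protein, was detected on 2 arrays. The array held no probe listed under Tekt2, Tekt4, Dnah9, Rsph4a, Lrrc23, Ccdc153, Cfap126, Cfap45, Tmem212, Ak7 or Lrriq1, and these 11 members were not analysed here.

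**Figure D2:**
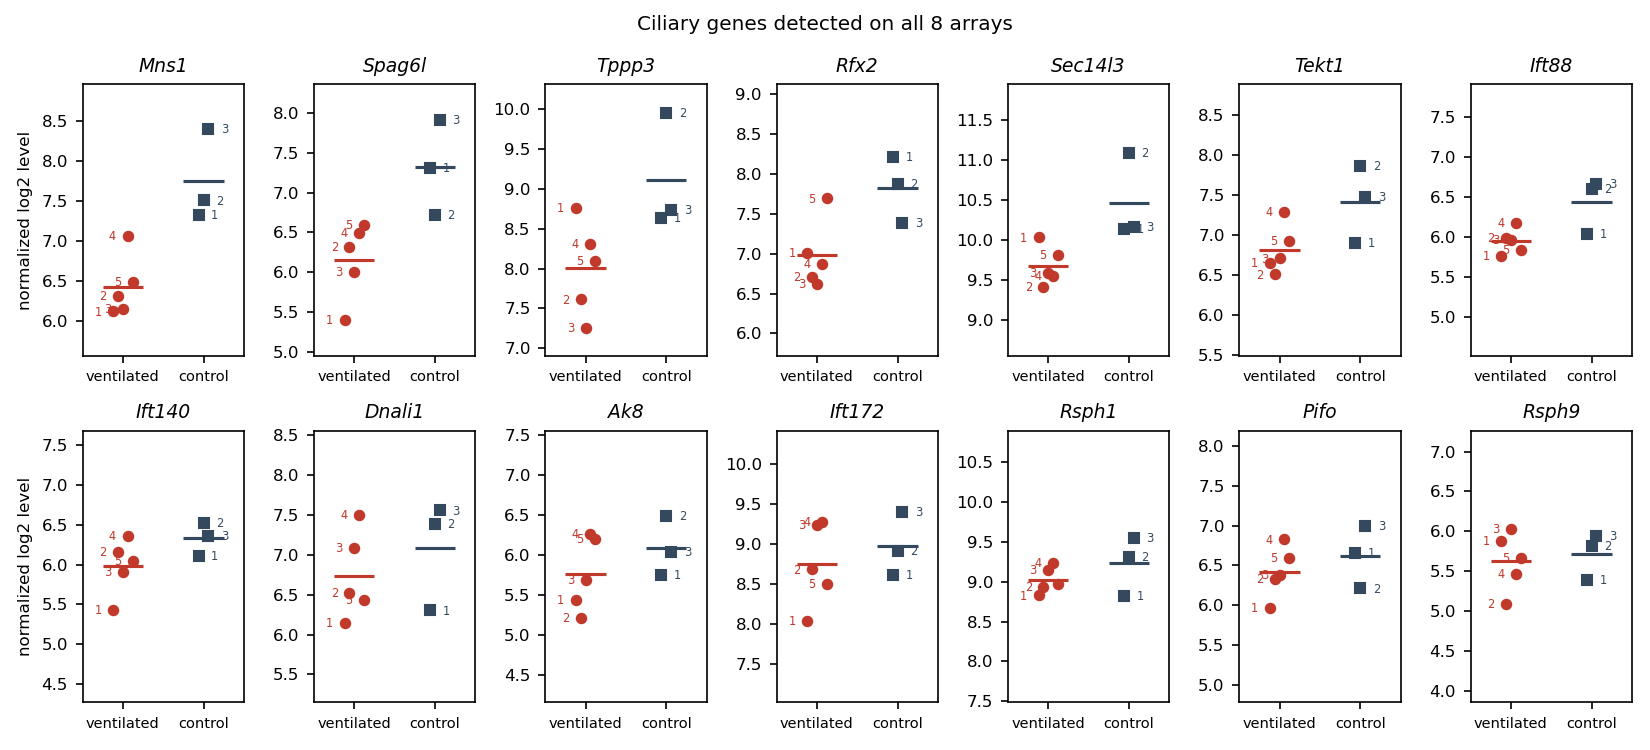
Normalized log2 level (y axis, 3.4 units in every panel) of the 14 ciliary genes detected on all 8 arrays, in the 5 ventilated lungs (circles, left) and the 3 control lungs (squares, right), with the lung numbers beside the points and the group means as lines. In Mns1, Spag6l and Sec14l3 all ventilated lungs lie below all controls, and in the other 11 genes the groups overlap.

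**Figure D3:**
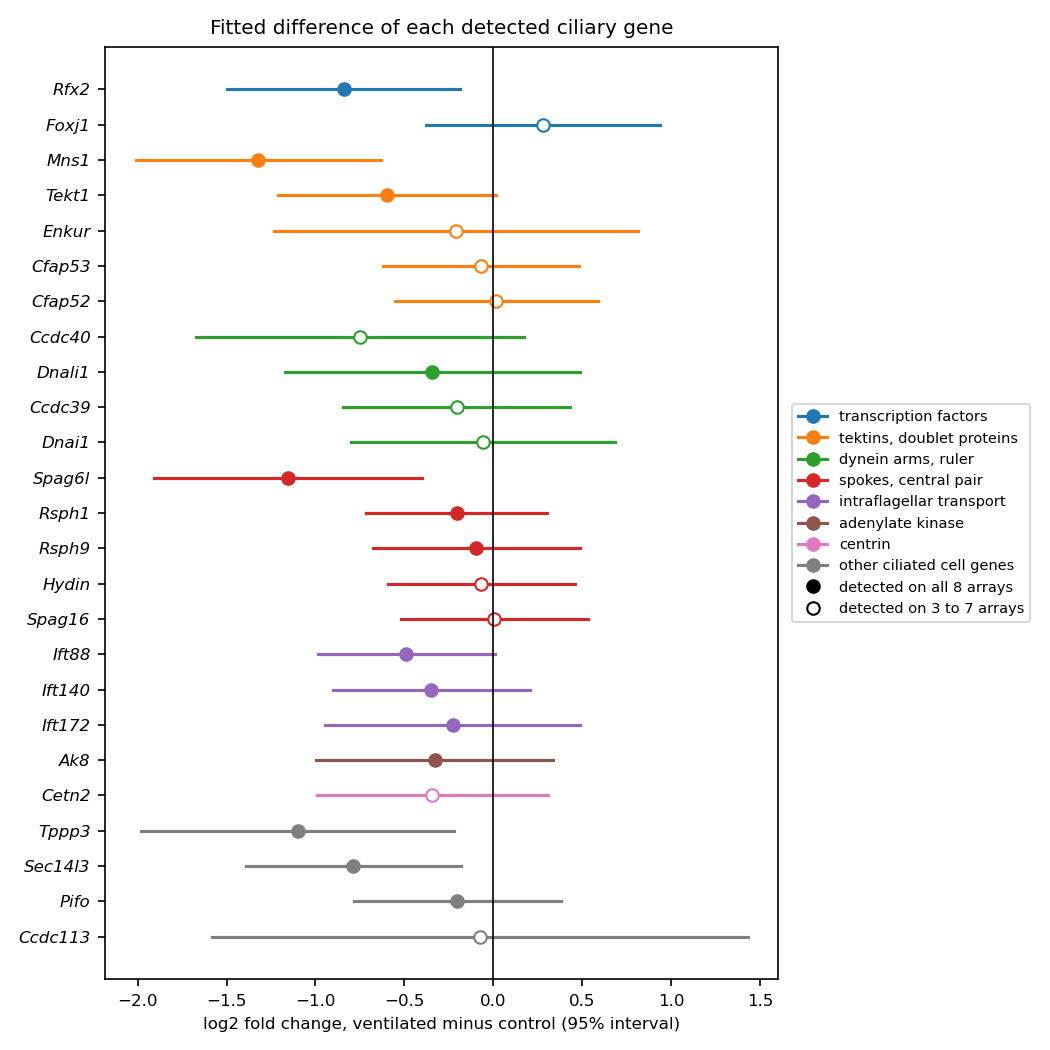
Log2 fold change, ventilated minus control (x axis), with its 95% interval from limma for the 25 detected ciliary genes, grouped by role; filled points were detected on all 8 arrays and open points on 3 to 7. The unadjusted intervals of Rfx2, Mns1, Spag6l, Tppp3 and Sec14l3 lie below 0, and 0 of the 25 genes passed after adjustment over all features.

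The lungs differed from each other within both groups. For each array the median over the 25 genes of the level minus the control mean was −0.60, −0.33, −0.35, −0.22 and −0.13 in ventilated lungs 1 to 5 and −0.18, −0.21 and 0.23 in controls 1 to 3. Ventilated 1 was lowest and control 3 highest, and the groups overlapped. Ventilated 1 held the lowest ventilated value of 11 of the 25 genes and ventilated 4 the highest of 11, while control 3 held the highest control value of 12. Summed over the 25 genes, the level was 11.49 to 11.89 on the log2 scale in ventilated lungs and 11.97 to 12.54 in controls. The groups did not overlap in this sum, which the brightest probes dominate, Sec14l3 among them. The sum also did not overlap for the 84 other cilium genes, at 12.85 to 13.17 in ventilated lungs and 13.18 to 13.37 in controls. Of their lists, only that of 19 further intraflagellar transport genes was apart, at 11.43 to 11.64 against 11.72 to 11.96 in controls. In each other list of those genes the sums of the groups overlapped. How often such sums lie apart for lists of other genes was not tested.

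Other cilium genes were taken from lists drawn up by known function, with earlier results of these data known. Of 163 genes on 6 lists 84 were detected, 57 of them with a log2 fold change below 0, and the median was −0.19. Of the 84, 1 was higher and 1 was lower at the threshold, beside 1.26% and 0.735% of all features. Dnai4, a dynein intermediate chain listed under its older symbol Wdr78, fell. It read 6.27, 5.87, 5.83, 5.83 and 5.60 in ventilated lungs and 6.58, 7.36 and 7.62 in controls, with no overlap, and its log2 fold change was −1.31 ± 0.27 (SE; 95% interval −1.91 to −0.70; adjusted p = 0.0396). Its adjusted p missed the threshold in 7 of 8 omissions of an array and in 6 of 14 other settings.

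Odf2, a protein of the appendages of mother centrioles, rose. Its levels were 6.09, 5.91, 6.14, 6.56 and 5.71 in ventilated lungs and 4.57, 4.32 and 4.67 in controls, with a log2 fold change of 1.56 ± 0.24 (SE; 95% interval 1.03 to 2.09; adjusted p = 0.00984). This probe was detected on all 5 ventilated arrays and on 2 of the 3 controls. Its levels in controls 1 and 3 lay near the lowest detected levels of those arrays, 4.49 and 4.57. The groups did not overlap for this probe, while a second probe of Odf2 gave 0.49 ± 0.34 with overlap. Odf2 passed in all 8 omissions of an array and missed in 3 of 13 other settings.

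Within the lists, 0 of 6 dynein assembly factors passed, with a median of −0.47 and Spag1 nearest the threshold at −0.82 ± 0.27 (adjusted p = 0.156). A second, dimmer probe of Spag1 gave −0.06 ± 0.28, and its groups overlapped. The 7 further dynein and docking genes, Dnai4 among them, had a median of −0.23, and the 17 further axoneme genes a median of −0.10 with 0 passing. That list was led by Drc3, a subunit of the nexin link, at −0.44 ± 0.21. Further, dimmer probes of Drc3 gave −0.24 ± 0.46 and 0.11 ± 0.49, both with overlap. The 13 regulators of multiciliogenesis and centriole genes, with Odf2, had a median of 0.13.

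Of 19 further intraflagellar transport genes 15 lay below 0 and 0 passed, with a median of −0.23. Ift52, a complex B subunit, came nearest. It read 7.44, 7.61, 7.29, 7.45 and 7.71 in ventilated lungs and 8.39, 8.38 and 8.26 in controls, a log2 fold change of −0.84 ± 0.20 (SE; 95% interval −1.28 to −0.40; adjusted p = 0.0605). The groups were apart, and Ift52 passed in 6 of 14 alternative settings and in 0 of 8 omissions of an array. Of 22 genes of the primary cilium, the BBSome and the transition zone 16 lay below 0 and 0 passed, with a median of −0.26. The smallest p among them was that of Bbs7, a BBSome subunit, at −0.63 ± 0.25 (adjusted p = 0.244). These medians were not tested against those of the motile cilium genes.

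**Figure D4:**
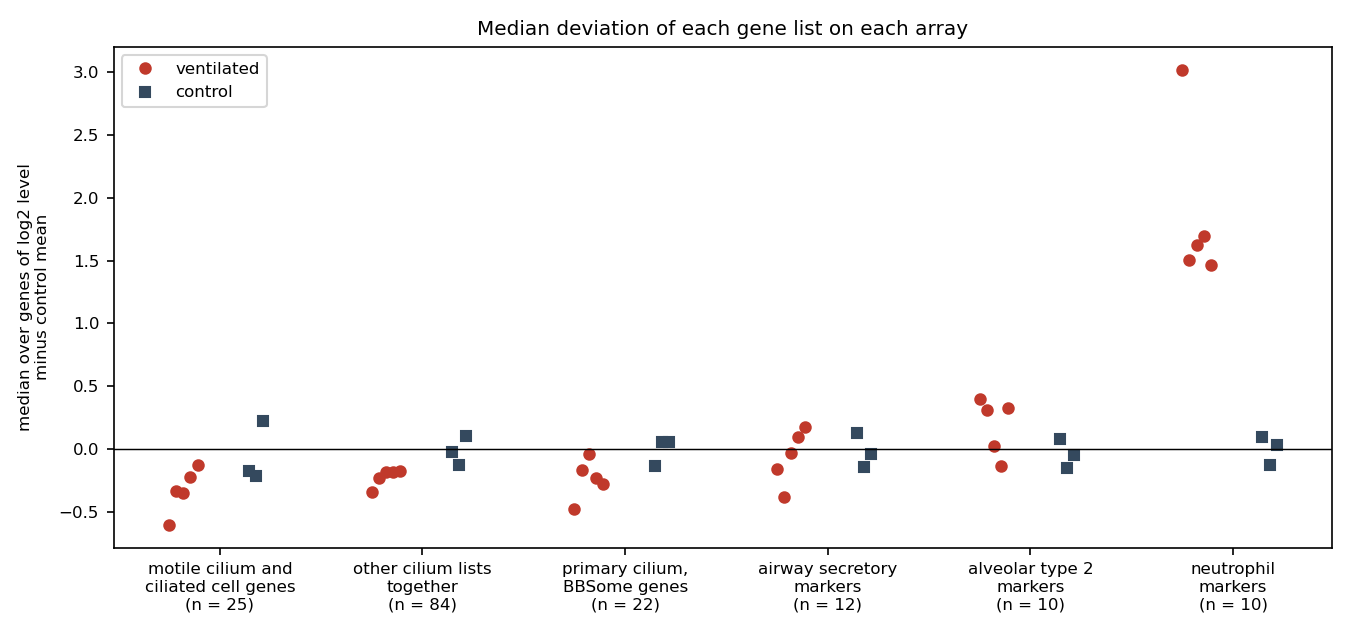
Deviation of each array from the control mean (y axis, log2 units), as the median over the detected genes of each list, ventilated lungs as circles (1 to 5 from left to right) and controls as squares (1 to 3). The motile cilium genes lie at −0.60 to −0.13 in ventilated lungs and at −0.21 to 0.23 in controls, and the neutrophil markers lie at 1.46 to 3.02 in ventilated lungs and at −0.12 to 0.10 in controls.

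Markers of other lung cells were measured beside them. Of 12 detected airway secretory markers, from the cells that line the airway together with ciliated cells, 0 passed and the median was −0.11. Their summed log2 level was 14.86 to 15.17 in ventilated lungs and 15.16 to 15.48 in controls. Nearest the threshold was Gabrp, a subunit of the receptor for gamma-aminobutyric acid, which read 6.40, 6.25, 6.93, 6.80 and 6.62 in ventilated lungs and 7.38, 7.66 and 8.24 in controls, at −1.16 ± 0.26 (adjusted p = 0.0529). The groups did not overlap for this probe or for a second one, at −1.26 ± 0.28. Gabrp passed in 8 of 14 alternative settings and in 0 of 8 omissions of an array. Scgb1a1, the main club cell secretoglobin and a gene singled out after its values were seen, stood at −0.20 ± 0.22 and does not stand for the list. Of the 12 markers 7 lay below 0 and 5 above, over a range of −1.16 to 1.62. For 2 of the 12 every ventilated value lay below every control value, beside 6.45% of all features.

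No marker passed among 3 airway basal, 3 neuroendocrine and tuft, 10 alveolar type 2, 7 alveolar type 1 and 8 endothelial genes, whose medians were −0.01, −0.61, 0.28, −0.45 and −0.14. Their smallest p-values were those of Krt15, Syp, Sftpd, Clic5 and Tek, of which Tek passed in 1 of 14 alternative settings. Skeletal muscle markers had a median of −1.11 with 0 of 5 passing, led by Tnnt3, and stood 3.17 above the control mean in control 1. Of 10 neutrophil markers 5 rose and none fell, namely Retnlg, S100a9, S100a8, Camp and Mmp9, with a list median of 1.76. The call was lost for Mmp9 in 7 of the 8 omissions of an array and for Camp in 5. Camp, an antimicrobial peptide precursor, was not detected on any control array, which makes its rise at least 4.01-fold. Their summed log2 level was 13.10 to 14.32 in ventilated lungs and 10.67 to 11.03 in controls. Ventilated 1 had both the highest neutrophil median, 3.02, and the lowest median over the 25 ciliary genes, −0.60. Over the 14 detected on all arrays, ventilated 2 was lower than ventilated 1. Over the 11 detected on fewer arrays, ventilated 4 was the lowest ventilated lung. Ventilated 4 had the next highest neutrophil median, yet its median over the 25 genes lay above those of ventilated 1, 2 and 3. The part of neutrophil, muscle or airway content in the ciliary values was not tested.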

How the data were processed

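Biotinylated cRNA from whole-lung total RNA was read on Illumina bead arrays, per the labels' protocols. The intensities deposited by the authors are linear and unnormalized, per the file headers. A detection p-value accompanies each intensity deposited. The authors also deposited a value table of the same intensities times 1 factor per array; 1 value was off its factor by over 1e-04, and its medians were 70.2, 42.5, 61.5, 82.5 and 30.9 in the 5 ventilated columns and 31.7, 116 and 34.3 in the 3 control columns. It is linear, uncentred, without direction, and served as an alternative. The files name no genome build.

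In R 4.3.3, neqc of limma 3.58.1 corrected background with negative controls inferred from detection p-values, added an offset of 16, quantile-normalized and took log2. Of 25697 probes 23978 carried 1 gene symbol, 1719 none and 0 several in the platform annotation; 23962 matched the RefSeq table. The 13374 probes detected on at least 3 of 8 arrays were kept, and the probe with the highest mean stood for a gene, giving 10200 features. The 2 groups were compared by lmFit and eBayes, two-sided, with Benjamini-Hochberg adjustment over all features. Second probes were fitted among all kept probes. The fit was tested on simulated data. Every member is named. Of other lists, genes past the threshold are named, or else the one with the smallest p, and Scgb1a1 besides. Members, lists and alternatives were chosen with earlier results of these data known. The number of arrays limits precision. Figures were drawn with matplotlib 3.10.9 in Python 3.11.15.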

Additional observations from a re-analysis of the deposited data

How the results depend on the processing

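The 25 genes gave 0 calls in each of the 8 fits that left out 1 array. They gave 1 call without background correction, with the deposited value table, with detection on all 8 arrays, with array brightness as a covariate and without the dimmest array of each group, and 2 with array weights. The call was that of Mns1, at adjusted p = 0.0495, 0.0496, 0.0359, 0.0391, 0.0457 and 0.00634, joined by Spag6l with array weights (adjusted p = 0.00644). At an adjusted p under 0.1 there was 1 call. The members' median kept its sign in all 14 alternatives run on it, over 14 genes with detection on all arrays, 31 with no detection filter and 25 in the others, and in the 8 omissions, where it was −0.41 to −0.04. It was −0.50 with a common median, which moved the median of all features to −0.11, and −0.49 with the replicate block. The sign share over all features also shifted with a common median, to 61.2% below 0.

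Calls over all features numbered 204, and 0 with a common median, 838 with array weights, 569 and 315 with brightness as a covariate and as a block, 11 within the brighter 4 arrays, 120 without the dimmest array of each group, 2 with the replicate block, 412 at an adjusted p under 0.1, and 68 (without control 3) to 164 (without control 2) with 1 array left out. The replicate block covered only numbers 1 to 3; same-numbered arrays had deviations correlated at −0.34, −0.36 and 0.36, so the numbers were not taken as pairs. Calls among the other cilium genes numbered 2, and 0 with a common median, within the brighter arrays and with the replicate block, 1 with a trended robust variance and without the dimmest arrays, 5 with array weights, 4 with brightness as a covariate and at the looser threshold, and 1 to 2 with 1 array left out. The cause of these shifts was not tested.

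Uncalled log2 fold changes, which ran from −0.21 (Enkur) to 0.28 (Foxj1) in the main fit, turned sign in 20 combinations of a gene and an alternative. These were Spag16 −0.049 (normexp without inferred negative controls); Spag16 −0.032 (no background correction); Spag16 −0.032 (deposited value table); Foxj1 −0.088, Cfap52 −0.36 (common median in place of quantile); Dnai1 0.027 (mean of all detected probes); Spag16 −0.034, Cfap52 −0.24 (array weights); Ccdc113 0.016 (array brightness as a covariate); Dnai1 0.077, Ccdc113 0.24, Hydin 0.060, Enkur 0.056 (array brightness as a block); Cfap52 −0.31, Hydin 0.090 (brighter 4 arrays alone); Foxj1 −0.10, Spag16 −0.064, Cfap52 −0.27 (without the dimmest array of each group); Cfap52 −0.083, Cfap53 0.048 (replicate block over the shared numbers). Leaving out 1 array turned the sign of further or the same genes, over ranges of Dnai1 −0.49 to 0.18, Rsph9 −0.26 to 0.040, Spag16 −0.12 to 0.088, Ccdc39 −0.37 to 0.047, Ccdc113 −0.89 to 0.43, Cfap52 −0.25 to 0.17, Cfap53 −0.19 to 0.053, Hydin −0.21 to 0.013, Enkur −0.82 to 0.11. The dimmer arrays, control 2 first, limit what could be detected.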
